A study of Mus musculus with 9 samples.

Results

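Chemokines and their receptors were described in cultured adipose-derived stem cells (ASCs) from 3 fat depots of the mouse. The cells from subcutaneous fat are called Sub-ASCs, those from abdominal fat Ab-ASCs and those from perivascular fat PVASCs. The members were the protein-coding rows of the gene table whose name is that of a CC, CXC, CX3C or C chemokine, of a signalling receptor for them or of an atypical chemokine receptor. Cxcl9, Cxcl10 and Cxcl11 were left out. This gave 65 of 54532 rows, with 59 gene names, because some CC ligands are annotated in several copies. All 3 groups came from C57/BL6 mice and were sequenced as bulk mRNA at passages 3 to 6, with 3 libraries per group. All were grown in 1 serum-containing stem cell medium with leukemia inhibitory factor and FGF. No transgene or drug treatment is named for these cultures, and the age and sex of the mice and whether animals were pooled are not given in the sources used here. In such bulk cultures, fewer cells that express a gene and less RNA of it per cell cannot be told apart.

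Chemokines are small secreted proteins that guide the migration of leukocytes and stem cells along gradients held on cell-surface glycosaminoglycans. They are named for the spacing of conserved cysteines. CXC chemokines with a Glu-Leu-Arg (ELR) motif before these cysteines attract mainly neutrophils, whereas most others attract monocytes, lymphocytes or progenitors. The signalling receptors couple to inhibitory G proteins, and the atypical receptors bind chemokines without this coupling and scavenge or transport them. Stromal cells of fat and of bone marrow are known as sources of Cxcl12, which retains progenitors, and of Ccl2, which draws monocytes into fat.

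The libraries held 20524173 to 29881036 reads in genes. Of the 14 ASC genes listed, all had reads in every group, but their levels differed between groups. Ly6a, which encodes Sca1, had 1700.4, 18.1 and 92.3 FPKM in Sub-ASCs, Ab-ASCs and PVASCs, and Thy1 (CD90) had 111, 77.1 and 295 FPKM in Sub-ASCs, Ab-ASCs and PVASCs. Ptprc, which encodes the leukocyte marker CD45, had 0.488, 0.0772 and 0.154 FPKM in Sub-ASCs, Ab-ASCs and PVASCs. Pecam1, which encodes the endothelial marker CD31, had 7.27, 2 and 28.8 FPKM in Sub-ASCs, Ab-ASCs and PVASCs. Ab-ASC libraries varied most, with a biological coefficient of variation of 12.3%, compared with 5.69% for Sub-ASCs and 3.86% for PVASCs, and Ab-ASC replicate 1 stood apart most.

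The upstream sequences of 5 ligands are given first, because these genes differed widely among the groups. Cxcl1, Cxcl2 and Cxcl3 are neighbours that were all low in PVASCs, and Ccl8 and Cxcl12 had the highest levels in Sub-ASCs. Each sequence is the 250 bases before the RefSeq start of transcription (GRCm38.p6), and capitals mark matches to any of the motifs searched. Those were a kappaB motif (GGG and TTCC parted by any 3 bases), an interferon-stimulated response element (GAAA and GAAA parted by any 2 bases), a gamma-activated sequence (TTCNNNGAA), an AP-1 motif (TGANTCA) and TATAAA, each on both strands. A kappaB match can overlap its own reverse complement, and such matches are drawn as 1 run.
Cxcl1 (chr5:90890995-90891244, plus strand): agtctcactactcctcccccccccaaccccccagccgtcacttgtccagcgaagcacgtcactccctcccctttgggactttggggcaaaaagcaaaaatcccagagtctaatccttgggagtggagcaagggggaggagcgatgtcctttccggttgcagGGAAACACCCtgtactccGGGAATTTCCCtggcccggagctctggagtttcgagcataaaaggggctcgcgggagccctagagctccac
Cxcl2 (chr5:90903649-90903898, plus strand): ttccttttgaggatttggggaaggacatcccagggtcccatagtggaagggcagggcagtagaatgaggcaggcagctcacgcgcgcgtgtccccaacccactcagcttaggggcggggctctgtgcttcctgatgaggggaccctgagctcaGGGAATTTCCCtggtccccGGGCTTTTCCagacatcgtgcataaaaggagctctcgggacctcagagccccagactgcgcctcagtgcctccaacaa
Cxcl3 (chr5:90785851-90786100, plus strand): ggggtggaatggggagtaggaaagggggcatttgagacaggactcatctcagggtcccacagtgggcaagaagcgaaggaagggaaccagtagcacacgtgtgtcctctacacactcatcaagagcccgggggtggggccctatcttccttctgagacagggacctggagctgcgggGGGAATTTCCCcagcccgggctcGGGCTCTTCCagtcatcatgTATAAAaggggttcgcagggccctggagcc
Ccl8 (chr11:82114935-82115184, plus strand): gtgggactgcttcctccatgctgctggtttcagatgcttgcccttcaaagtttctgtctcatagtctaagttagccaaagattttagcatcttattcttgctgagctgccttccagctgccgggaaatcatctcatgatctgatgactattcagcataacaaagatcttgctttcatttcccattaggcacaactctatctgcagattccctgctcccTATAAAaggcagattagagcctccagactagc
Cxcl12 (chr6:117168285-117168534, plus strand): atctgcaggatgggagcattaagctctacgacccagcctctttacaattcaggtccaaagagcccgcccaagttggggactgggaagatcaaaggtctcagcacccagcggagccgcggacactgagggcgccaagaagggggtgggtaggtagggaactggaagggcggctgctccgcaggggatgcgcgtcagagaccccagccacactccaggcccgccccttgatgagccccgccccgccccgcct

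Cxcl1, Cxcl2 and Cxcl3 held the same 10 letters, GGGAATTTCC, at 71 to 62 bases before the start in Cxcl1, 97 to 88 bases in Cxcl2 and 73 to 64 bases in Cxcl3, and each had at least 1 more kappaB match nearby. In Ccl8 the capitals mark TATAAA at 32 to 27 bases before the start, and in Cxcl12 no motif matched. RefSeq upstream windows were found for 44 of the 58 member names on chromosomes, with 51 windows in all, and for 19 of the 27 genes that reached 1 FPKM. A kappaB match was present in 8 of the 51 windows (15.7%), compared with 4.65% of 32817 windows over all genes. Among windows of the genes that reached 1 FPKM, 3 of 22 held such a match. The other members with a kappaB match were Ccl1, Ccl9, Ccl20, Ccr3 and Ccr6, of which Ccl1 and Ccl9 were highest in Sub-ASCs and Ccl20 had 23 of its 33 reads in PVASCs. TATAAA was present in 27.5% of member windows and 12.4% of all windows. AP-1 (9.8% against 6.75%), gamma-activated (7.84% against 7.01%) and interferon-stimulated (3.92% against 2.97%) matches were closer to the share over all genes. These matches are descriptions of the letters and do not show binding.

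Reads were found for 56 of the 65 members, namely 53 in Sub-ASCs, 43 in Ab-ASCs and 46 in PVASCs. Of these, 27 members had a mean of at least 1 FPKM in a group, with 26 in Sub-ASCs, 20 in Ab-ASCs and 19 in PVASCs. FPKM, read counts scaled by gene length and library size, is used for every level below. It was computed with library sizes normalized by the trimmed mean of M-values. The gene length counts the merged exons of all annotated transcripts of a gene, so the order of levels between genes depends on that length. Ligands made up 21 of these 27, whereas few of the 19 signalling receptors, Ccr1 and Cxcr4 among them, and 3 of 4 atypical receptors reached this level. The 9 members without a read in any library were Ccl26, Ccr1l1, Ccl21a and Ccl21b on chromosome 4, and 5 copies of Ccl19, Ccl21a, Ccl21b, Ccl21c and Ccl27a on unplaced scaffolds. A count of 0 allows up to 3 reads in a library, or 0.0917 to 0.161 CPM (counts scaled to library size). This limit may not hold for Ccl19, Ccl21a, Ccl21b, Ccl21c and Ccl27a. They are annotated in several copies, and reads of near-identical copies cannot be assigned with certainty. A further 8 members, Ccr4, Ccr8, Cxcr1, Cxcr2, Cxcl15, Ccl19, Ccl27b and a copy of Ccl21c, had 1 to 9 reads over all 9 libraries.

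**Figure D1:**
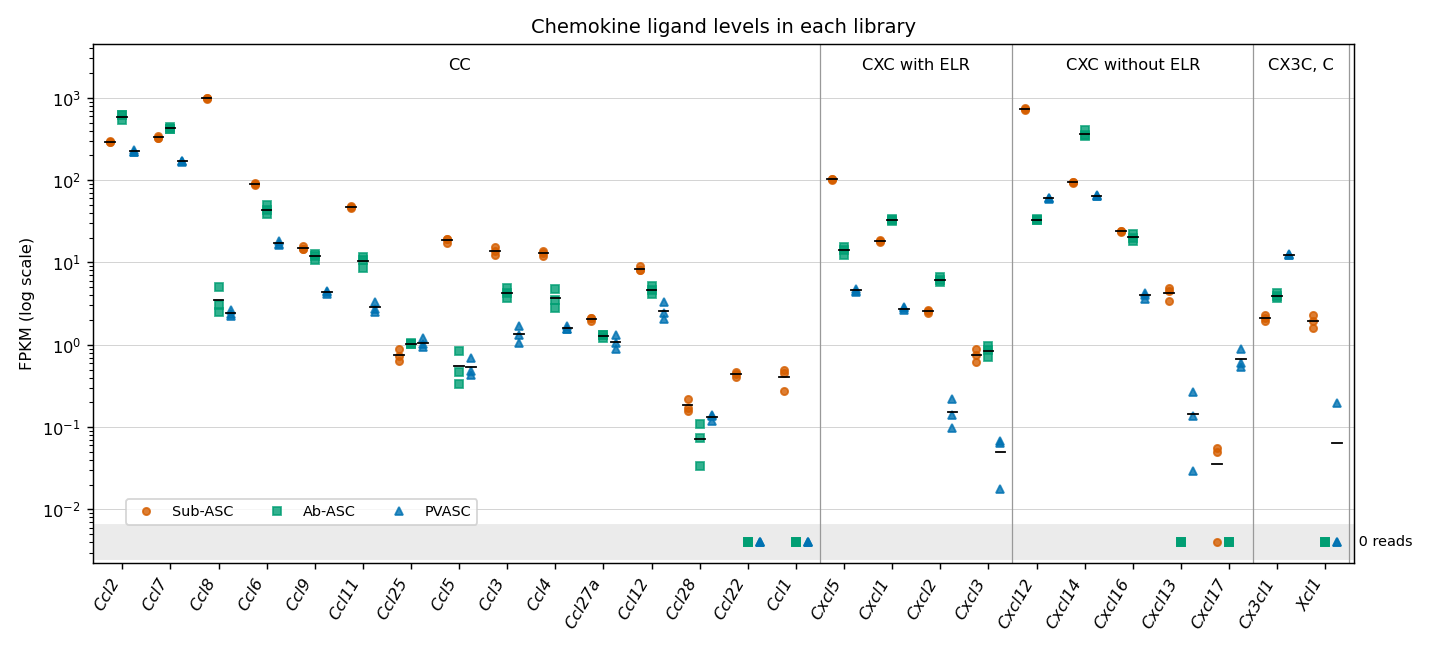
FPKM on a log scale of the 26 tested ligands in each library, grouped by family, with 1 point per library, a bar at each group mean and a grey band for 0 reads. Ccl8 lay above 960 in the Sub-ASC libraries and below 6 in the others, and only Cx3cl1 and Cxcl17 were called highest in PVASCs.

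Members took 0.793 to 0.827% of all reads in Sub-ASCs, 0.217 to 0.223% in Ab-ASCs and 0.130 to 0.131% in PVASCs. Cxcl12 alone supplied 70.9 to 72.1% of the member reads in Sub-ASCs, 11.2 to 11.7% in Ab-ASCs and 40.6 to 41.4% in PVASCs. Without Cxcl12, the members took 0.230 to 0.231% in Sub-ASCs, 0.192 to 0.197% in Ab-ASCs and 0.0762 to 0.0777% in PVASCs. The 3 groups kept the same order with and without this gene, but Sub-ASCs and Ab-ASCs were closer without it.

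In the order of levels, Ccl8 led in Sub-ASCs, followed by Cxcl12, Ccl7, Ccl2 and Ackr3. Ccl2, Ccl7 and Cxcl14 led in Ab-ASCs, followed by Ccl6, Cxcl12 and Cxcl1. PVASCs had the same leading 3 ligands as Ab-ASCs, followed by Cxcl12, Ccl6 and Cx3cl1. Within the leading 10 of each group, the ranges of neighbours overlapped for Cxcl14 and Ccl6 in Sub-ASCs, for Cxcl12 and Cxcl1, Cxcl16 and Ccr1, and Cxcl5 and Ccl9 in Ab-ASCs, and for Cxcl5 and Ccl9 in PVASCs. By reads, which grow with transcript length, the leading 3 members were Cxcl12, Ccl8 and Ackr3 in Sub-ASCs (82.0 to 83.0% of member reads), Ccl2, Cxcl14 and Ccl7 in Ab-ASCs (70.3 to 71.5%) and Cxcl12, Ccl2 and Ccl7 in PVASCs (73.6 to 74.0%).

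To ask how the depots differ, the groups were compared by edgeR's quasi-likelihood test over 16526 genes, in which 38 members had enough reads. PVASCs were lower than Sub-ASCs for 29 members and higher for 6, and 3 did not pass the test. Differences between these groups were general, since 70.4% of all genes were called, 34.7% as higher and 35.7% as lower. The median log2 fold change was -2.48 over the members and -0.01 over all genes. PVASCs were lower than Ab-ASCs for 17 members and higher for 6, where 56.9% of all genes were called (24.7% higher, 32.1% lower), with medians of -0.60 and -0.06. Ab-ASCs were lower than Sub-ASCs for 23 members and higher for 11, where 75.3% of all genes were called (37% higher, 38.3% lower), with medians of -1.02 and -0.03. With genes at 0 reads in a whole group set at their bound, the medians over the members were -2.48, -0.60 and -0.93. Without Ab-ASC replicate 1, which stood apart most, 39 members were tested, of which 36 differed for PVASCs and Sub-ASCs, 25 for PVASCs and Ab-ASCs, and 35 for Ab-ASCs and Sub-ASCs. Both comparisons with a group share its libraries, so the 3 sets of calls are not independent.

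Sub-ASCs had the highest level, called against both other groups, for 22 of the 38 members, compared with 28.7% of all genes. Ab-ASCs were highest for 7 (20.9% of all genes), namely Ccl2, Ccl7, Cxcl1, Cxcl2, Cxcl14, Ccr1 and Xcr1. PVASCs were highest for 3 (10.2%), namely Cx3cl1, Cxcl17 and Ackr4. PVASCs were lowest against both groups for 15 members (12% of all genes), of which 14 were ligands. Ab-ASCs were lowest for 3 (15.6%), namely Cxcl12, Cxcl13 and Ackr2, and Sub-ASCs for 5 (27.5%), namely Cx3cl1, Ccl25, Ccr1, Xcr1 and Ackr4.

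**Figure D2:**
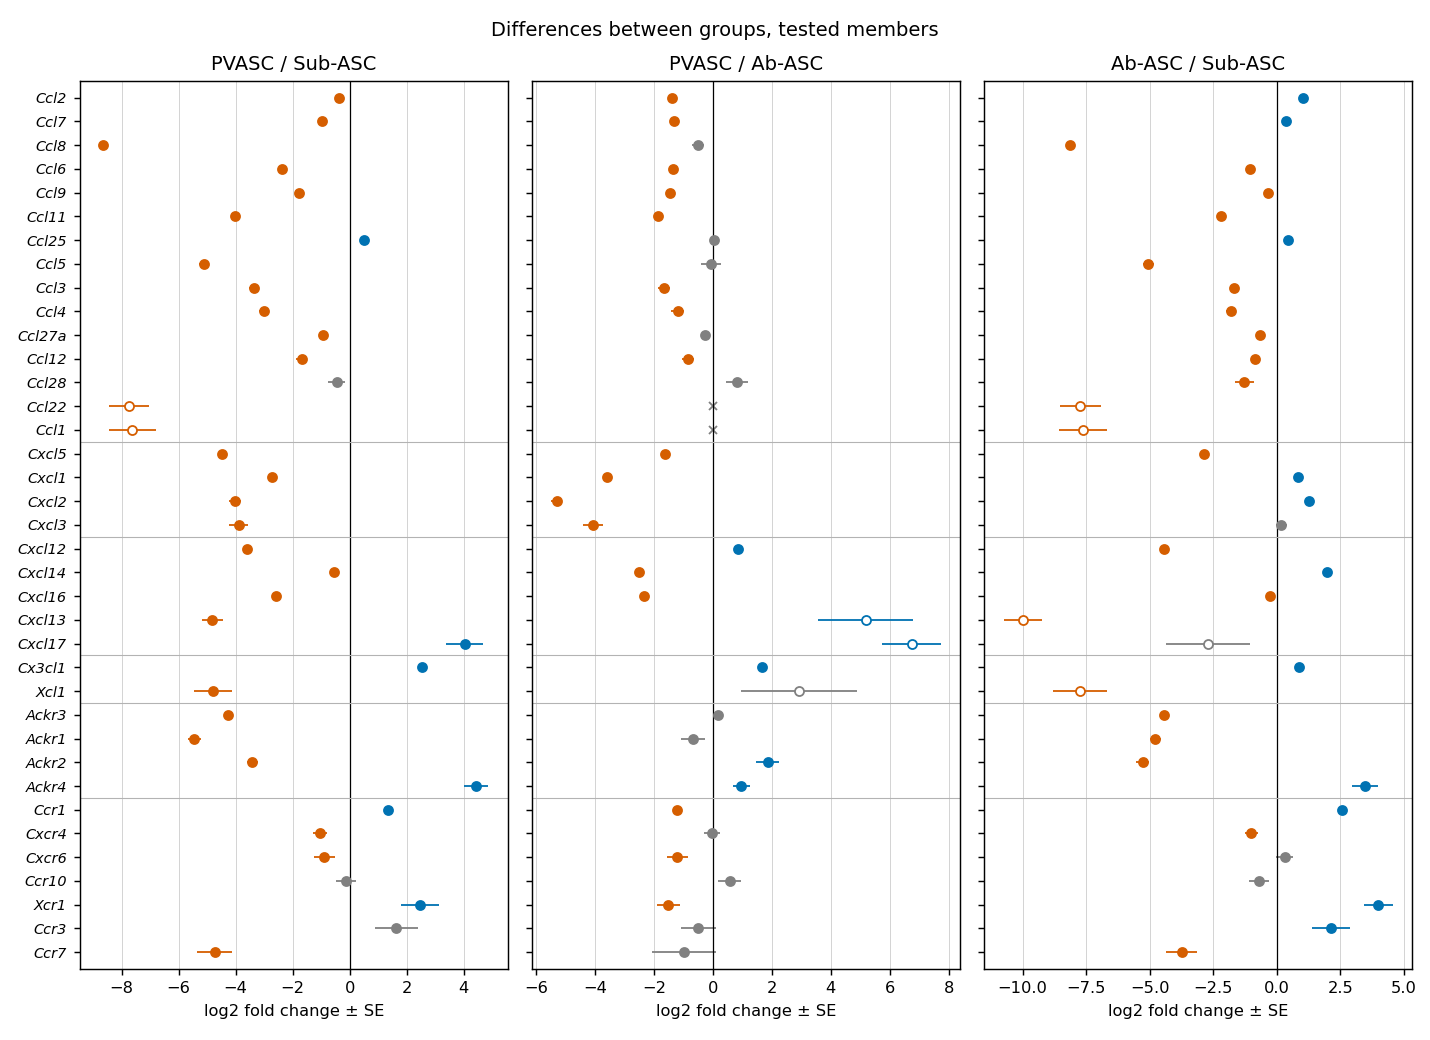
Log2 fold changes with SE from edgeR for 37 tested members in the 3 comparisons, with blue for higher, orange for lower and grey for not called. Open points have a group at 0 reads and crosses have both groups at 0 reads, and in PVASCs against Sub-ASCs 28 of the 37 lie to the left as called.

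Among the CC ligands, the monocyte attractants of a cluster on chromosome 11 (chr11:82035571-82305690, GRCm38) did not share 1 pattern. The cluster holds Ccl2, Ccl7, Ccl11, Ccl12, Ccl8 and Ccl1 within 270.1 kb. Ccl2, the main ligand of Ccr2, had 295, 287 and 291 FPKM in the Sub-ASC libraries, 532, 619 and 610.2 in the Ab-ASC libraries and 222, 219 and 229.8 in the PVASC libraries. The 3 groups did not overlap, and Ab-ASCs were highest. Ccl2 was 2.02-fold higher in Ab-ASCs than in Sub-ASCs (log2 fold change 1.01 ± 0.06 SE, adjusted p = 9.19e-09) and 2.62-fold lower in PVASCs than in Ab-ASCs (log2 fold change -1.39 ± 0.06 SE, adjusted p = 2.48e-09). Ccl7, which also acts through Ccr2, followed the same order, with 325, 342 and 320.3 FPKM in the Sub-ASC libraries, 414, 417 and 446 in the Ab-ASC libraries and 167, 170.4 and 172 in the PVASC libraries. It was 1.94-fold lower in PVASCs than in Sub-ASCs (log2 fold change -0.96 ± 0.05 SE, adjusted p = 3.67e-09). The other Ccl7 differences were also called, with Ab-ASCs 1.29-fold above Sub-ASCs (adjusted p = 2.55e-05).

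Ccl8, another attractant of monocytes and T cells, had 988, 961 and 1000.1 FPKM in the Sub-ASC libraries, 5.04, 3.04 and 2.53 in the Ab-ASC libraries and 2.21, 2.39 and 2.68 in the PVASC libraries. It was a leading transcript of Sub-ASCs and a minor one elsewhere. The level was 405-fold lower in PVASCs (log2 fold change -8.66 ± 0.14 SE, adjusted p = 7.51e-14) and 278-fold lower in Ab-ASCs (log2 fold change -8.14 ± 0.14 SE, adjusted p = 1.20e-13) than in Sub-ASCs. PVASCs and Ab-ASCs overlapped, and their difference did not pass the test (log2 fold change -0.51 ± 0.21 SE, adjusted p = 0.0535), though it did with DESeq2 (adjusted p = 0.0381) and without a low-count filter, Ab-ASC replicate 2 or Ab-ASC replicate 3 (adjusted p = 0.0260, 0.0423 and 0.0114). Ccl11, or eotaxin, which attracts eosinophils through Ccr3, fell stepwise, with 46.9, 48.7 and 45.7 FPKM in the Sub-ASC libraries, 8.48, 10.6 and 11.8 in the Ab-ASC libraries and 2.49, 2.76 and 3.35 in the PVASC libraries. It was 4.58-fold lower in Ab-ASCs than in Sub-ASCs (log2 fold change -2.19 ± 0.11 SE, adjusted p = 2.29e-09) and a further 3.59-fold lower in PVASCs than in Ab-ASCs (log2 fold change -1.85 ± 0.14 SE, adjusted p = 3.13e-07). Ccl12, a mouse ligand of Ccr2, took the same order at lower levels, with 8.95, 8.12 and 8.1 FPKM in the Sub-ASC libraries, 4.1, 5.21 and 4.57 in the Ab-ASC libraries and 2.05, 3.35 and 2.43 in the PVASC libraries. Its PVASC level was 3.22-fold below that of Sub-ASCs (adjusted p = 2.95e-06). Ccl1, a ligand of Ccr8, had 27, 27 and 17 reads in the Sub-ASC libraries and none in any other, which makes it at least 6.70-fold lower in Ab-ASCs and at least 9.93-fold lower in PVASCs against a floor of 3 reads per library.

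**Figure D3:**
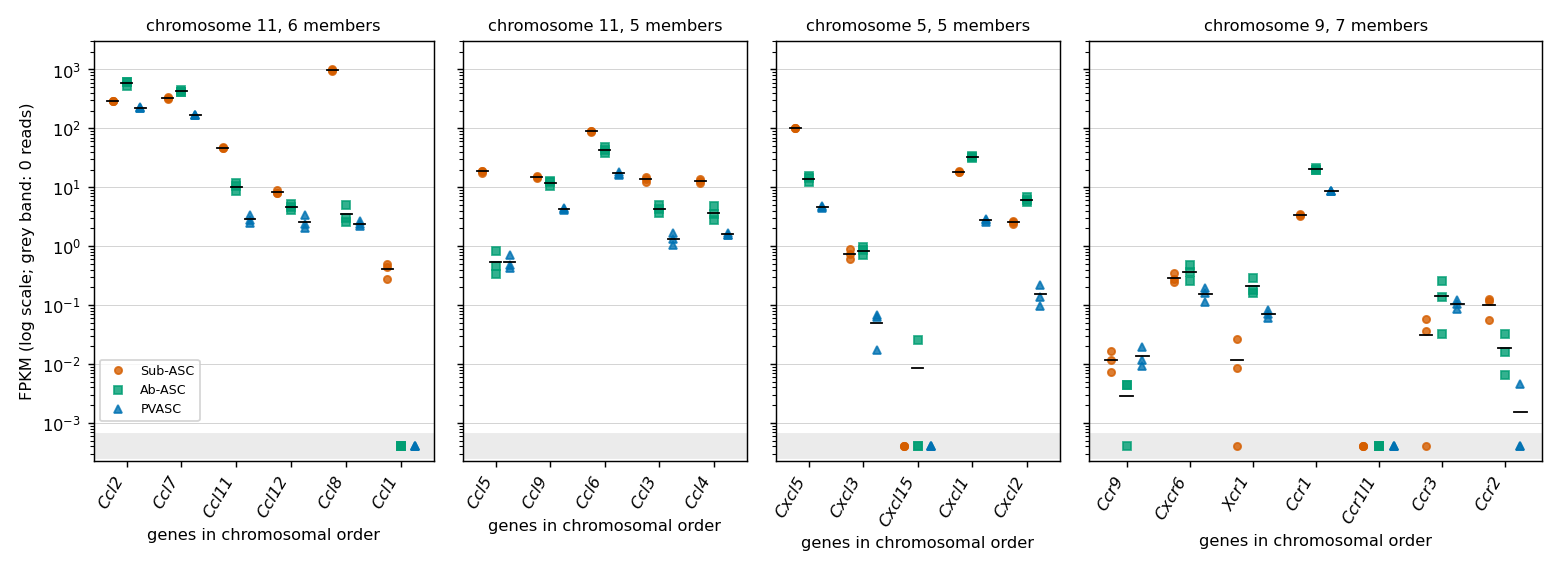
FPKM on a log scale of members in 4 gene clusters, in chromosomal order, with 1 point per library, a bar at each group mean and a grey band for 0 reads. Members of 1 cluster order the 3 groups differently, with Ccl2 highest in Ab-ASCs and Ccl11 in Sub-ASCs, and Cxcl1 highest in Ab-ASCs and Cxcl5 in Sub-ASCs.

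The second chromosome 11 cluster (chr11:83525778-83664683) holds Ccl5, Ccl9, Ccl6, Ccl3 and Ccl4 within 138.9 kb, and all 5 were highest in Sub-ASCs. Ccl6, a mouse ligand of Ccr1, had 91.1, 87.4 and 90.5 FPKM in the Sub-ASC libraries, 49.2, 38.7 and 43.5 in the Ab-ASC libraries and 16.2, 18.5 and 16.9 in the PVASC libraries, so that its level dropped 2.05-fold from Sub-ASCs to Ab-ASCs (log2 fold change -1.04 ± 0.08 SE, adjusted p = 1.51e-07) and 2.55-fold from Ab-ASCs to PVASCs (log2 fold change -1.35 ± 0.08 SE, adjusted p = 6.80e-08). Ccl9, which shares this receptor, had 14.7, 14.6 and 15.7 FPKM in the Sub-ASC libraries, 12.8, 10.7 and 12.1 in the Ab-ASC libraries and 4.33, 4.19 and 4.53 in the PVASC libraries. It was 1.27-fold lower in Ab-ASCs than in Sub-ASCs (adjusted p = 0.00115). In PVASCs Ccl9 was 3.45-fold lower than in Sub-ASCs (log2 fold change -1.79 ± 0.08 SE, adjusted p = 5.44e-10). Ccl3 and Ccl4 are inflammatory attractants of monocytes and T cells. Ccl3 had 15.2, 12.3 and 13.6 FPKM in the Sub-ASC libraries, 4.21, 4.93 and 3.67 in the Ab-ASC libraries and 1.32, 1.68 and 1.04 in the PVASC libraries, and Ccl4 had 13.7, 12 and 13 FPKM in the Sub-ASC libraries, 4.8, 2.76 and 3.51 in the Ab-ASC libraries and 1.67, 1.54 and 1.54 in the PVASC libraries. Both were called in each comparison, with 10.2-fold (adjusted p = 2.67e-09) and 8.13-fold (adjusted p = 8.27e-09) lower levels in PVASCs than in Sub-ASCs. Ccl5, a T cell and monocyte attractant, was different in that PVASCs and Ab-ASCs overlapped, with 19.2, 19.2 and 17.3 FPKM in the Sub-ASC libraries, 0.336, 0.463 and 0.836 in the Ab-ASC libraries and 0.478, 0.424 and 0.696 in the PVASC libraries. It was 34.9-fold lower in PVASCs than in Sub-ASCs (log2 fold change -5.11 ± 0.18 SE, adjusted p = 8.52e-11), and the interval of 1 SE around the difference between PVASCs and Ab-ASCs spanned 0 (log2 fold change -0.06 ± 0.34 SE, adjusted p = 0.897).

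Genes of macrophages, which express many of these CC ligands, also differed between the groups. Of 16 macrophage genes, 14 were lower and 2 higher in PVASCs than in Sub-ASCs, with the same counts for Ab-ASCs against Sub-ASCs, and 8 were lower and 3 higher in PVASCs than in Ab-ASCs. Their median log2 fold changes were -1.09, -0.89 and -0.33, against -0.01, -0.03 and -0.06 over all genes. Their summed level was 362 to 380 FPKM in Sub-ASCs, 282 to 371 in Ab-ASCs and 272 to 282 in PVASCs, and none was at 0 reads. Lyz2, a lysozyme of myeloid cells, made up much of these sums and was lowest in Sub-ASCs, with 123, 206 and 189 FPKM in Sub-ASCs, Ab-ASCs and PVASCs. The macrophage receptor gene Adgre1 had 4.26, 2.25 and 2.32 FPKM in Sub-ASCs, Ab-ASCs and PVASCs. Csf1r, the receptor for macrophage colony-stimulating factor, had 3.59, 6.98 and 4.68 FPKM in Sub-ASCs, Ab-ASCs and PVASCs. The part of such cells in the CC ligand differences was not tested.

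Genes of the interferon response were also highest in Sub-ASCs, as were Ccl8 and Ccl5. This list was included because its genes were known from earlier results of these data to differ between the groups. All 20 were lower in both PVASCs and Ab-ASCs than in Sub-ASCs, with medians of -4.23 and -4.48. In PVASCs against Ab-ASCs 12 were higher and 4 lower, with a median of 0.62. Of all genes, 35.7% and 38.3% were called lower in PVASCs and Ab-ASCs than in Sub-ASCs. In PVASCs against Ab-ASCs 24.7% of all genes were higher and 32.1% lower. Irf7, a regulator of interferon genes, had 57.3, 1.99 and 1.64 FPKM in Sub-ASCs, Ab-ASCs and PVASCs. The part of the interferon response genes in the ligand differences was not tested.

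Among the remaining CC ligands, levels were low. Ccl27a, a skin T cell attractant for Ccr10, had 1.93, 2.1 and 2.1 FPKM in the Sub-ASC libraries, 1.31, 1.22 and 1.33 in the Ab-ASC libraries and 0.9, 1.04 and 1.3 in the PVASC libraries at its copy on chromosome 4 (chr4:41769467-41774247). This was 1.89-fold lower in PVASCs than in Sub-ASCs (log2 fold change -0.92 ± 0.15 SE, adjusted p = 1.03e-04), but reads of near-identical copies cannot be assigned with certainty. Another copy on a scaffold had 12 reads, all in Sub-ASCs. Ccl25, the ligand of Ccr9, was lowest in Sub-ASCs, with 0.634, 0.876 and 0.727 FPKM in the Sub-ASC libraries, 1.04, 1.03 and 1.01 in the Ab-ASC libraries and 1.01, 1.2 and 0.944 in the PVASC libraries, and was 1.41-fold higher in PVASCs (log2 fold change 0.49 ± 0.13 SE, adjusted p = 0.0049). Ccl25 shares 204 exonic bases with Elavl1 on the opposite strand, and the strand setting of the counts is not given in the sources used here. Ccl28, a mucosal ligand, had 25, 21 and 20 reads in Sub-ASCs, 3, 12 and 8 in Ab-ASCs and 22, 17 and 21 in PVASCs, with a lower level called in Ab-ASCs than in Sub-ASCs (adjusted p = 0.0071). Without Ab-ASC replicate 2, Ccl28 was also called higher in PVASCs than in Ab-ASCs (adjusted p = 0.0318). Ccl22, a ligand of Ccr4, had 22, 28 and 27 reads in Sub-ASCs and none elsewhere, and was at least 7.18-fold lower in Ab-ASCs and at least 10.6-fold lower in PVASCs. Its neighbour Ccl17, which binds the same receptor, had 3, 2 and 2 reads in Sub-ASCs, 3, 6 and 1 in Ab-ASCs and 9, 10 and 15 in PVASCs. Ccl20, the ligand of Ccr6, had 0, 1 and 1 reads in Sub-ASCs, 5, 3 and 0 in Ab-ASCs and 9, 8 and 6 in PVASCs. Ccl24, another eotaxin, had 3, 2 and 0 reads in Sub-ASCs, 2, 7 and 3 in Ab-ASCs and 1, 0 and 0 in PVASCs. These last 3 had too few reads for the test.

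The CXC ligands with ELR lie together on chromosome 5 (chr5:90759360-90905938) and act on neutrophils through Cxcr2. All 4 tested members, Cxcl1, Cxcl2, Cxcl3 and Cxcl5, were lower in PVASCs than in both other groups. Cxcl1 had 17.8, 18.4 and 18.6 FPKM in the Sub-ASC libraries, 34.1, 32.5 and 31.9 in the Ab-ASC libraries and 2.85, 2.78 and 2.61 in the PVASC libraries. The groups did not overlap, and PVASCs were 11.9-fold below Ab-ASCs (log2 fold change -3.58 ± 0.07 SE, adjusted p = 3.93e-12) and 6.65-fold below Sub-ASCs (log2 fold change -2.73 ± 0.07 SE, adjusted p = 3.26e-12). Cxcl2, the next member downstream, showed a wider contrast, with 2.68, 2.41 and 2.54 FPKM in the Sub-ASC libraries, 6.72, 5.72 and 6.1 in the Ab-ASC libraries and 0.222, 0.0983 and 0.138 in the PVASC libraries. This was 40.4-fold lower in PVASCs than in Ab-ASCs (log2 fold change -5.30 ± 0.19 SE, adjusted p = 4.12e-10) and 16.7-fold lower than in Sub-ASCs (log2 fold change -4.02 ± 0.20 SE, adjusted p = 2.31e-09). Cxcl3 stayed below 1 FPKM in every library, with 0.896, 0.618 and 0.741 FPKM in the Sub-ASC libraries, 0.706, 0.953 and 0.867 in the Ab-ASC libraries and 0.0175, 0.0678 and 0.0637 in the PVASC libraries. Sub-ASCs and Ab-ASCs overlapped for Cxcl3 (log2 fold change 0.17 ± 0.22 SE, adjusted p = 0.492), whereas PVASCs were 15.1-fold below Sub-ASCs (adjusted p = 3.92e-07). The upstream windows of Cxcl1, Cxcl2 and Cxcl3 printed above were chosen because these genes differed among the groups, and Cxcl5 was not among the windows searched. A link between the letters and the levels was not tested.

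Cxcl5, at the other end of the cluster, ordered the groups differently, with 103, 103 and 102 FPKM in the Sub-ASC libraries, 12.4, 14.3 and 15.4 in the Ab-ASC libraries and 4.73, 4.55 and 4.42 in the PVASC libraries. It was 7.31-fold lower in Ab-ASCs (log2 fold change -2.87 ± 0.07 SE, adjusted p = 3.73e-12) and 22.4-fold lower in PVASCs (log2 fold change -4.49 ± 0.08 SE, adjusted p = 1.76e-13) than in Sub-ASCs. Cxcl1 and Cxcl2, in contrast, were 1.8-fold and 2.43-fold higher in Ab-ASCs than in Sub-ASCs (adjusted p = 4.89e-08 and 1.12e-06). Cxcl15, which lies between Cxcl3 and Cxcl1, had 1 read in all. Of the receptors for this family, Cxcr2 had 5 reads and Cxcr1 had 2 reads over all libraries.

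Feedback genes of NF-kB, a pathway known to drive ELR ligands, were set beside these values. Of 13 such genes, PVASCs had 10 lower and 1 higher than Sub-ASCs, and the counts against Ab-ASCs were the same, with medians of -0.55 and -0.75. In Ab-ASCs against Sub-ASCs 6 were higher and 4 lower, with a median of 0.01. Of all genes, 35.7%, 32.1% and 38.3% were called lower in these comparisons, and 34.7%, 24.7% and 37% higher. The medians over all genes were -0.01, -0.06 and -0.03. Nfkbia, an inhibitor that NF-kB induces, had 51.9, 47.2 and 24.4 FPKM in Sub-ASCs, Ab-ASCs and PVASCs, and Relb, a subunit, had 11.6, 14.1 and 5.57 FPKM in Sub-ASCs, Ab-ASCs and PVASCs. Rel, another subunit, was the 1 gene called higher in PVASCs than in Sub-ASCs. It had 0.899, 1.39 and 1.48 FPKM in Sub-ASCs, Ab-ASCs and PVASCs. Neutrophil genes were scarce. Of 8 listed, 5 were tested, of which 2 were lower in PVASCs than in Sub-ASCs and all 5 were lower in PVASCs than in Ab-ASCs. In Ab-ASCs against Sub-ASCs 3 neutrophil genes were higher and 1 lower. Their summed level was 1.93 to 3.28 FPKM in Sub-ASCs, 5.99 to 6.77 in Ab-ASCs and 0.601 to 0.985 in PVASCs, and Elane had no reads in PVASCs. The part of either group of genes in the ELR ligand differences was not tested.

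Cxcl12 was the member with the most reads. The protein retains stem cells and lymphocytes through Cxcr4 and is removed by Ackr3. Its gene (chr6:117168535-117181367) had 734, 701 and 747 FPKM in the Sub-ASC libraries, 34.2, 33.1 and 32.3 in the Ab-ASC libraries and 60.2, 60.5 and 59.4 in the PVASC libraries. The groups did not overlap, and each pair was called. Cxcl12 was 21.9-fold lower in Ab-ASCs (log2 fold change -4.45 ± 0.05 SE, adjusted p = 8.52e-15) and 12.1-fold lower in PVASCs (log2 fold change -3.60 ± 0.05 SE, adjusted p = 2.12e-14) than in Sub-ASCs, and 1.81-fold higher in PVASCs than in Ab-ASCs (log2 fold change 0.86 ± 0.04 SE, adjusted p = 9.98e-09). Cxcl14, a homeostatic chemokine of epithelium and fat, took another order, with 95.1, 91 and 96 FPKM in the Sub-ASC libraries, 408, 347 and 349 in the Ab-ASC libraries and 65.2, 64.1 and 65 in the PVASC libraries. It was 3.91-fold higher in Ab-ASCs than in Sub-ASCs (log2 fold change 1.97 ± 0.07 SE, adjusted p = 3.83e-11) and 5.69-fold lower in PVASCs than in Ab-ASCs (log2 fold change -2.51 ± 0.07 SE, adjusted p = 4.43e-11).

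Cxcl16 is made as a membrane protein and binds Cxcr6. It was near in level in Sub-ASCs and Ab-ASCs and low in PVASCs, with 23.7, 24.1 and 24 FPKM in the Sub-ASC libraries, 22.4, 18.2 and 19.8 in the Ab-ASC libraries and 4.05, 4.31 and 3.64 in the PVASC libraries. PVASCs were 5.99-fold below Sub-ASCs (log2 fold change -2.58 ± 0.09 SE, adjusted p = 4.38e-11) and 5.04-fold below Ab-ASCs (log2 fold change -2.33 ± 0.09 SE, adjusted p = 7.54e-10). The lower level in Ab-ASCs than in Sub-ASCs was called (log2 fold change -0.25 ± 0.08 SE, adjusted p = 0.0123) but not without Ab-ASC replicate 2 (adjusted p = 0.0563). Cxcl16 shares 552 exonic bases (18.3%) with Zmynd15 on the opposite strand, which had 629, 230 and 50 reads in Sub-ASCs, Ab-ASCs and PVASCs.

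Cxcl13, which organizes B cell follicles through Cxcr5, was a gene of Sub-ASCs in these cultures, with 3.4, 4.96 and 4.54 FPKM in the Sub-ASC libraries, 0, 0 and 0 in the Ab-ASC libraries and 0.266, 0.0295 and 0.138 in the PVASC libraries. It was at least 34.6-fold lower in Ab-ASCs, where it had no reads, and 29.7-fold lower in PVASCs (log2 fold change -4.82 ± 0.38 SE, adjusted p = 8.80e-07) than in Sub-ASCs. Without PVASC replicate 1 the latter log2 fold change was -5.58, and the call was kept. The small difference between PVASCs, with 10, 1 and 5 reads, and Ab-ASCs was called (adjusted p = 0.0204) but not without PVASC replicate 1 (adjusted p = 0.0576). Cxcl17, a mucosal chemokine, was 1 of 3 members highest in PVASCs, with 1, 0 and 1 reads in Sub-ASCs, 0, 0 and 0 in Ab-ASCs and 15, 12 and 21 in PVASCs. It was called against both Sub-ASCs (adjusted p = 2.69e-04) and Ab-ASCs (adjusted p = 2.56e-04), and exceeded Ab-ASCs by at least 3.58-fold. Of 14 lymphocyte genes, 7 were tested, and their summed level was 3.25 to 3.75 FPKM in Sub-ASCs, 0.183 to 0.311 in Ab-ASCs and 0.683 to 0.755 in PVASCs. All 7 were lower in Ab-ASCs than in Sub-ASCs, and 6 were lower in PVASCs than in Sub-ASCs. In PVASCs against Ab-ASCs 1 was higher, the kinase gene Lck, which had 0.68, 0.0894 and 0.578 FPKM in Sub-ASCs, Ab-ASCs and PVASCs and made up most of the sum in PVASCs. Cd3e, Cd3g, Cd2, Cd79b and Ncr1 had no reads in both Ab-ASCs and PVASCs, and the part of lymphocytes in the level of Cxcl13 was not tested.

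Cx3cl1 was the only member above 1 FPKM that was called highest in PVASCs. It encodes fractalkine, a mucin-like membrane protein of endothelium and neurons that binds Cx3cr1. The gene (chr8:94772009-94782427) lies between Ccl22 and Ccl17 on chromosome 8 and had 2.28, 2.14 and 1.96 FPKM in the Sub-ASC libraries, 4.25, 3.68 and 3.91 in the Ab-ASC libraries and 12.3, 12.4 and 12.7 in the PVASC libraries. The 3 groups did not overlap. PVASCs were 5.86-fold above Sub-ASCs (log2 fold change 2.55 ± 0.08 SE, adjusted p = 1.96e-11) and 3.16-fold above Ab-ASCs (log2 fold change 1.66 ± 0.07 SE, adjusted p = 3.57e-09), and Ab-ASCs were 1.85-fold above Sub-ASCs (log2 fold change 0.89 ± 0.08 SE, adjusted p = 8.70e-07). Its receptor gene Cx3cr1 had only 4, 0 and 1 reads in Sub-ASCs, 2, 0 and 3 in Ab-ASCs and 3, 1 and 4 in PVASCs.

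Endothelial genes were also high in PVASCs. Of 14, PVASCs had 11 higher and 2 lower than Sub-ASCs, and 13 higher than Ab-ASCs, with medians of 1.96 and 2.72. In Ab-ASCs against Sub-ASCs, 11 were lower and 1 higher, with a median of -1.68, and the log2 fold change of Cx3cl1 was 0.89. Of all genes, 34.7%, 24.7% and 37% were called higher in these comparisons, and 35.7%, 32.1% and 38.3% lower. The summed level of the endothelial genes was 72.7 to 75.6 FPKM in Sub-ASCs, 24.4 to 25.9 in Ab-ASCs and 289 to 295 in PVASCs, with no gene at 0 reads. Cdh5, which encodes VE-cadherin, had 11.1, 4.09 and 49.7 FPKM in Sub-ASCs, Ab-ASCs and PVASCs, and Vwf, the von Willebrand factor, had 0.109, 0.108 and 0.154 FPKM in Sub-ASCs, Ab-ASCs and PVASCs. Mesothelial genes took another order, with summed levels of 1.36 to 1.73 FPKM in Sub-ASCs, 44.6 to 49.5 in Ab-ASCs and 22.1 to 23.5 in PVASCs. Of the 11 tested of 12, 9 were higher and 1 lower in PVASCs than in Sub-ASCs, 10 were higher in Ab-ASCs than in Sub-ASCs, and 2 were higher and 9 lower in PVASCs than in Ab-ASCs. Upk1b, Lrrn4 and Muc16 had no reads in Sub-ASCs. The part of endothelial or mesothelial cells in the level of Cx3cl1 was not tested.

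Xcl1, a C chemokine of T and natural killer cells, had 24, 31 and 22 reads in Sub-ASCs, 0, 0 and 0 in Ab-ASCs and 0, 3 and 0 in PVASCs. Ab-ASCs were at least 7.21-fold below Sub-ASCs, and PVASCs were lower as well (adjusted p = 7.73e-05). Its receptor Xcr1, a marker of cross-presenting dendritic cells, had 0, 3 and 1 reads in Sub-ASCs, 24, 16 and 18 in Ab-ASCs and 12, 8 and 10 in PVASCs. Xcr1 was called lower in Sub-ASCs than in Ab-ASCs (adjusted p = 4.42e-05) and PVASCs (adjusted p = 0.00528).

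**Figure D4:**
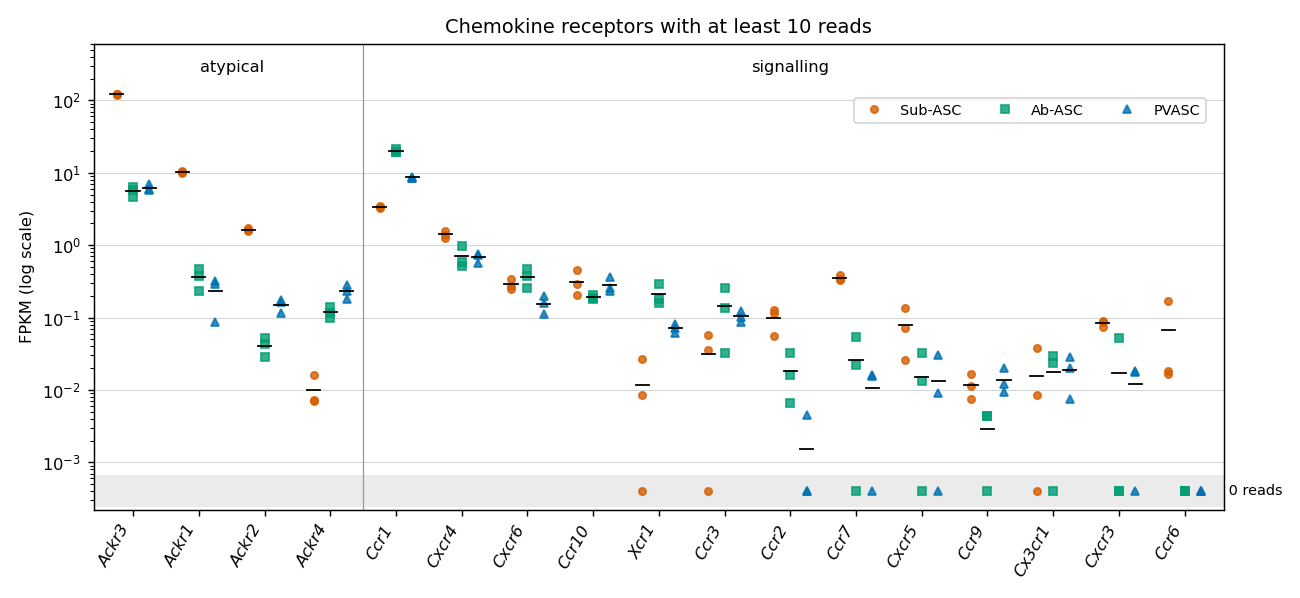
FPKM on a log scale of 17 receptors with at least 10 reads in each library, atypical receptors on the left, with 1 point per library, a bar at each group mean and a grey band for 0 reads. Ackr3 in Sub-ASCs lay near 120, whereas most signalling receptors lay below 1 in every group.

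Of the atypical receptors, 3 were highest in Sub-ASCs. Ackr3, which internalizes Cxcl12, is on chromosome 1 (chr1:90203980-90216751) and had 119, 123 and 121 FPKM in the Sub-ASC libraries, 6.3, 5.72 and 4.61 in the Ab-ASC libraries and 6.05, 6.88 and 5.8 in the PVASC libraries. It was 21.8-fold lower in Ab-ASCs (log2 fold change -4.45 ± 0.10 SE, adjusted p = 1.51e-12) and 19.4-fold lower in PVASCs (log2 fold change -4.28 ± 0.10 SE, adjusted p = 1.85e-12). Ab-ASCs and PVASCs overlapped (log2 fold change 0.17 ± 0.10 SE, adjusted p = 0.16), but the difference was called without Ab-ASC replicate 1 (adjusted p = 0.00991). Ackr1, the Duffy antigen, which binds many inflammatory chemokines on red cells and venules, had 10.1, 10.4 and 10.1 FPKM in the Sub-ASC libraries, 0.229, 0.475 and 0.381 in the Ab-ASC libraries and 0.087, 0.289 and 0.317 in the PVASC libraries. It was 44.2-fold lower in PVASCs than in Sub-ASCs (log2 fold change -5.46 ± 0.23 SE, adjusted p = 2.99e-10). Ackr1 shares 361 exonic bases (25.7%) with Cadm3 on the same strand, whose reads were 12132 in Sub-ASCs, 719 in Ab-ASCs and 230 in PVASCs, so the reads of the 2 genes cannot be fully separated.

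Ackr2, a scavenger of inflammatory CC chemokines such as Ccl2, had 1.55, 1.72 and 1.6 FPKM in the Sub-ASC libraries, 0.0515, 0.0284 and 0.0428 in the Ab-ASC libraries and 0.117, 0.163 and 0.173 in the PVASC libraries. It was 39.7-fold lower in Ab-ASCs (log2 fold change -5.28 ± 0.27 SE, adjusted p = 2.02e-09) and 10.8-fold lower in PVASCs (log2 fold change -3.42 ± 0.19 SE, adjusted p = 5.75e-09) than in Sub-ASCs. Ackr4, which removes Ccl19, Ccl21 and Ccl25, went the other way at low levels, with 2, 1 and 1 reads in Sub-ASCs, 10, 17 and 14 in Ab-ASCs and 41, 29 and 48 in PVASCs. In PVASCs it was 23-fold above Sub-ASCs (adjusted p = 1.40e-06) and 1.96-fold above Ab-ASCs (adjusted p = 0.0118), the latter not without PVASC replicate 3 (adjusted p = 0.0591). Ackr4 shares 479 exonic bases with Acad11 on the opposite strand.

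Ccr1 was the signalling receptor with the highest level. It is a receptor of monocytes and macrophages for Ccl3, Ccl5, Ccl6 and Ccl9, and had 3.41, 3.52 and 3.26 FPKM in the Sub-ASC libraries, 19.5, 21.5 and 19.3 in the Ab-ASC libraries and 8.51, 8.53 and 8.81 in the PVASC libraries. Sub-ASCs, which had the highest levels of these ligands, had the lowest level of Ccr1. Ccr1 was 5.91-fold higher in Ab-ASCs (log2 fold change 2.56 ± 0.07 SE, adjusted p = 7.20e-12) and 2.54-fold higher in PVASCs (log2 fold change 1.34 ± 0.07 SE, adjusted p = 3.67e-09) than in Sub-ASCs. Cxcr4, the signalling receptor of Cxcl12, was low throughout, with 1.4, 1.57 and 1.27 FPKM in the Sub-ASC libraries, 0.594, 0.983 and 0.518 in the Ab-ASC libraries and 0.761, 0.731 and 0.563 in the PVASC libraries. Sub-ASCs were highest, and PVASCs were 2.06-fold lower (log2 fold change -1.04 ± 0.23 SE, adjusted p = 0.00154), whereas PVASCs and Ab-ASCs overlapped (log2 fold change -0.04 ± 0.26 SE, adjusted p = 0.919). In every group the mean level of Ackr3 was above that of Cxcr4, both receptors of Cxcl12.

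The signalling receptors that follow stayed below 1 FPKM in every group. Ccr7, which guides cells to lymph nodes, had 18, 17 and 17 reads in Sub-ASCs, 2, 1 and 0 in Ab-ASCs and 1, 0 and 1 in PVASCs and was called lower in both other groups than in Sub-ASCs (adjusted p = 9.88e-05 for Ab-ASCs and 1.75e-05 for PVASCs). Ccr2, the receptor of Ccl2 and Ccl7, had 20, 20 and 10 reads in Sub-ASCs, 2, 5 and 1 in Ab-ASCs and 1, 0 and 0 in PVASCs and was too low for the test, so its ligands were abundant in cultures with few reads of the receptor. Ccr3, the eotaxin receptor, had 0, 3 and 5 reads in Sub-ASCs, 2, 10 and 19 in Ab-ASCs and 11, 12 and 9 in PVASCs, and its higher level in Ab-ASCs than in Sub-ASCs (adjusted p = 0.0228) was lost without Ab-ASC replicate 3 (adjusted p = 0.154), Sub-ASC replicate 1 (adjusted p = 0.0684) or Sub-ASC replicate 2 (adjusted p = 0.0543). For PVASCs against Sub-ASCs, Ccr3 was called without Ab-ASC replicate 1 (adjusted p = 0.0255) or a low-count filter (adjusted p = 0.0267). Cxcr6, the receptor of Cxcl16, had 11, 17 and 14 reads in Sub-ASCs, 17, 11 and 16 in Ab-ASCs and 7, 9 and 12 in PVASCs. It was called lower in PVASCs than in Ab-ASCs (adjusted p = 0.0132) and Sub-ASCs (adjusted p = 0.0443). The latter call was lost with DESeq2 (adjusted p = 0.138) and without a low-count filter (adjusted p = 0.108). It was also lost without any 1 library other than Ab-ASC replicate 2 or PVASC replicate 3. The call against Ab-ASCs was lost without Ab-ASC replicate 1 (adjusted p = 0.0724) or PVASC replicate 1 (adjusted p = 0.0581). Ccr10 had 18, 9 and 13 reads in Sub-ASCs, 6, 7 and 8 in Ab-ASCs and 13, 13 and 20 in PVASCs with no difference called. Cxcr5 had 2, 6 and 12 reads in Sub-ASCs, 2, 1 and 0 in Ab-ASCs and 1, 3 and 0 in PVASCs, Ccr9 had 4, 3 and 2 reads in Sub-ASCs, 0, 1 and 1 in Ab-ASCs and 4, 6 and 3 in PVASCs, Cxcr3 had 3, 4 and 4 reads in Sub-ASCs, 0, 0 and 2 in Ab-ASCs and 1, 0 and 1 in PVASCs and Ccr6 had 1, 10 and 1 reads in Sub-ASCs, 0, 0 and 0 in Ab-ASCs and 0, 0 and 0 in PVASCs. Of the 12 reads of Ccr6, 10 were in 1 Sub-ASC library. Cxcr5 shares 110 exonic bases (3.3%) with Bcl9l on the opposite strand, which had 28988 reads over all libraries. Ccr9 shares 1932 exonic bases (18.8%) with AC165425.1 on the opposite strand, which had 7 reads.

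Beyond the members, 48 genes of chemokine signalling, processing and presentation were examined. In PVASCs against Sub-ASCs 22 were higher and 20 lower, with a median log2 fold change of 0.13, and in Ab-ASCs against Sub-ASCs 21 were higher and 21 lower, with a median of 0.01. In PVASCs against Ab-ASCs 12 were higher and 25 lower, with a median of -0.36. Plcb2, a phospholipase downstream of the receptors, had 0.161, 0.0194 and 0.0632 FPKM in Sub-ASCs, Ab-ASCs and PVASCs. Gnai2, the main inhibitory G protein subunit of leukocytes, had 101, 142 and 141 FPKM in Sub-ASCs, Ab-ASCs and PVASCs, and Arrb2, an arrestin that ends receptor signals, had 3.84, 3.6 and 2.42 FPKM in Sub-ASCs, Ab-ASCs and PVASCs.

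Dpp4, which clips and inactivates Cxcl12, had 11.2, 1.34 and 0.219 FPKM in Sub-ASCs, Ab-ASCs and PVASCs, and it was lower in PVASCs than in Sub-ASCs (log2 fold change -5.68 ± 0.16 SE, adjusted p = 8.36e-12), as was Cxcl12. Mmp2, a metalloproteinase that also cleaves Cxcl12, had 937, 112 and 78.2 FPKM in Sub-ASCs, Ab-ASCs and PVASCs (log2 fold change -3.58 ± 0.05 SE, adjusted p = 3.83e-14 for PVASCs against Sub-ASCs). Adam17 and Adam10 shed Cx3cl1 and Cxcl16 from the membrane. Adam17 had 42.1, 14.1 and 12 FPKM in Sub-ASCs, Ab-ASCs and PVASCs and Adam10 had 34.8, 24.7 and 45.6 FPKM in Sub-ASCs, Ab-ASCs and PVASCs, of which only Adam10 was higher in PVASCs than in Sub-ASCs (log2 fold change 0.39 ± 0.12 SE, adjusted p = 0.0134). Tnfaip6, a secreted protein that binds chemokines and glycosaminoglycans, had 21.6, 23.6 and 5.59 FPKM in Sub-ASCs, Ab-ASCs and PVASCs, and was lower in PVASCs than in either group (adjusted p = 5.91e-11 against Sub-ASCs and 2.39e-10 against Ab-ASCs).

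Chemokine-like ligands outside the naming rule also differed. Rarres2, which encodes chemerin, had 580.1, 25.5 and 0.12 FPKM in Sub-ASCs, Ab-ASCs and PVASCs (log2 fold change -12.21 ± 0.24 SE, adjusted p = 3.64e-13 for PVASCs against Sub-ASCs), and its receptor Cmklr1 had 2.22, 9.39 and 2.71 FPKM in Sub-ASCs, Ab-ASCs and PVASCs. Cd74, the receptor of Mif and a chain of class II presentation, had 21.1, 0.224 and 0.0625 FPKM in Sub-ASCs, Ab-ASCs and PVASCs, and Mif, a chemokine-like cytokine, had 619.5, 569.7 and 352 FPKM in Sub-ASCs, Ab-ASCs and PVASCs. Pf4 and Ppbp, platelet CXC chemokines that are neighbours of the ELR ligands on chromosome 5, were highest in Ab-ASCs. Pf4 had 26.6, 99.8 and 8.82 FPKM in Sub-ASCs, Ab-ASCs and PVASCs (log2 fold change -3.50 ± 0.11 SE, adjusted p = 1.38e-10 for PVASCs against Ab-ASCs), and Ppbp had 0.0117, 2.71 and 0.0398 FPKM in Sub-ASCs, Ab-ASCs and PVASCs (adjusted p = 6.73e-07). Ab-ASCs were thus the group with the highest Cxcl1, Cxcl2, Pf4 and Ppbp, while Cxcl5 was highest in Sub-ASCs.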

How the data were processed

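Bulk mRNA of cultured ASCs was measured in 9 libraries. The authors deposited raw read counts per gene, without normalization, and the sources used here do not give the strand setting. The submitters' processing notes name CASAVA 1.8, Bowtie 0.12.2, featureCounts 1.5.0-p3 and the builds mm8 and mm10. Start, end and length of all 65 members matched GENCODE M21 (GRCm38). The table also lists gene lengths, from which FPKM was computed here with library sizes scaled by TMM.

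Groups were taken from the labels. Whether replicates came from separate animals or cultures is not stated, so p-values measure the spread between libraries. Counts of all 9 libraries entered 1 edgeR 4.0.16 fit (R 4.3.3, limma 3.58.1, filterByExpr, TMM, quasi-likelihood F-test). P-values were adjusted by Benjamini-Hochberg over 16526 genes, with a threshold of 0.05. The procedure was first tested on simulated data. Depth was 20524173 to 29881036 reads per library, and limits from 3 reads cover counting error only. Replicates differed by more than counting noise.

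Members with a mean of 1 FPKM or more were given in every library, members with at least 10 reads were named with their reads, and others were listed. Results of some items are not reported here. Other genes came from fixed lists of chemokine signalling and processing, NF-kB feedback, interferon response, and macrophage, lymphocyte, neutrophil, endothelial, mesothelial and adipose stem cell genes. Members and lists were chosen with earlier results of these data known. Of 14 adipose stem cell genes, 4 were higher and 10 lower in PVASCs than in Sub-ASCs, with the same counts for Ab-ASCs against Sub-ASCs, and 5 were higher and 8 lower in PVASCs than in Ab-ASCs. Upstream sequences came from a RefSeq table and were searched for motifs in Python 3.11.15. Alternatives were DESeq2 1.42.0, RLE size factors, no filter, at least 10 reads in every library, fits of 2 groups, a replicate block, a minimum log2 fold change of 1 in size, and omission of each library in turn.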

Additional observations from a re-analysis of the deposited data

How the results depend on the processing

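The number of members called kept its direction under every alternative. It stayed within 1.5 times the reported 35, 23 and 34 (for PVASCs against Sub-ASCs, then PVASCs against Ab-ASCs, then Ab-ASCs against Sub-ASCs), except when at least 10 reads were required in every library. That left 21 members to test, of which 21 (3 higher, 18 lower), 15 (2 higher, 13 lower) and 21 (7 higher, 14 lower) were called. Leaving out 1 library gave 34 to 36, 22 to 25 and 33 to 35. With a minimum log2 fold change of 1 in size, the lists shrank to 15, 16 and 24 of 48 signalling and processing genes, to 6, 2 and 2 of 13 NF-kB genes, and to 7 of 20 interferon genes in PVASCs against Ab-ASCs. Of the 15, 16 and 24 signalling and processing genes, 2, 7 and 7 were higher and 13, 9 and 17 lower. Leaving out libraries gave 40 to 42, 34 to 38 and 41 to 45 signalling genes, 11, 11 to 12 and 10 to 12 NF-kB genes, and 20, 15 to 18 and 20 interferon genes. Of 1622 alternative values for single members, 1582 kept direction and call, 18 lost the call, 10 gained it and 12 turned direction, none of the last in a called difference.

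The differences that turned were not called. For Cxcr4 in PVASCs against Ab-ASCs the log2 fold changes were 0.0036 with at least 10 reads, 0.038 with 2 groups, and from -0.23 to 0.302 over fits without a library. Ccl5 in the same comparison gave 0.0191 with 2 groups and -0.30 to 0.392 without a library, with 0.0153 and 0.0719 among them. Without a library, Ccl25 gave -0.0661 to 0.107 and Ccr3 -0.91 to 0.241 in PVASCs against Ab-ASCs, and Ccr10 gave -0.35 to 0.203, with 0.0196 among them, in PVASCs against Sub-ASCs. The causes were not tested. Xcl1 in PVASCs against Ab-ASCs could not be computed without PVASC replicate 2, since all its reads there were in that library.

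Replicate numbers are shared between groups, but the deviations of same-numbered libraries correlated at 0.0106, 0.0298 and 0.00841 (PVASCs and Sub-ASCs), -0.0662, -0.0357 and -0.0317 (PVASCs and Ab-ASCs) and 0.0651, 0.254 and -0.152 (Ab-ASCs and Sub-ASCs), so the numbers were not taken as pairs. With a replicate block, 34, 23 and 34 members were called, and 11458, 9183 and 12302 genes. Cxcr6 in PVASCs against Sub-ASCs lost its call (adjusted p = 0.0755). Members with few reads, which include most signalling receptors, are limited by depth.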
